A study of Mus with 4 samples.

Results

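The hexokinase and phosphofructokinase isoforms are the genes for the early committed steps of glycolysis, described here in PPS-ICBR cells, a line that the labels call mouse prostate cancer cells of C57Bl6 background. All probe sets of the array whose platform annotation gives a single symbol among Hk1, Hk2, Hk3, Pfkl, Pfkm, Pfkp, Pfkfb1, Pfkfb2, Pfkfb3 and Pfkfb4 were taken, which gave 19 probe sets for 9 genes out of 18193 genes with a single symbol. Pfkfb1 had no such probe set and was not analysed here. The vorinostat group had 2 arrays from cells kept overnight with 5 µM vorinostat in DMSO, and the DMSO group had 2 arrays from cells that received 5 µL of DMSO in their 10 mL of medium. Cells were plated at 60% confluency, and RNA was hybridised to Affymetrix arrays. Vorinostat is an inhibitor of histone deacetylases, which remove acetyl groups from histones and other proteins. The labels give 1 cell line and do not say whether replicate arrays stand for separate cultures, so the spread between them may be technical.

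Hexokinases phosphorylate glucose once it has entered the cell and so hold it there. Phosphofructokinase-1, a tetramer of liver (Pfkl), muscle (Pfkm) and platelet (Pfkp) type subunits, then carries out the committed step of glycolysis. The PFKFB enzymes make and break down fructose-2,6-bisphosphate, a strong activator of phosphofructokinase-1. Cells and tissues differ in which isoform of each enzyme they express, and tumour cells often express high levels of Hk2 and Pfkfb3.

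The phosphofructokinase-1 subunits differed most between the groups, and in opposite directions. Pfkp was 12.8-fold higher and Pfkm 2.45-fold higher in vorinostat cells than in DMSO cells, while Pfkl was 3.25-fold lower. Hexokinases differed little, with Hk1 and Hk3 slightly higher and Hk2 slightly lower on the deposited scale, and Hk2 slightly higher with arrays scaled on reference genes. Pfkfb2 and Pfkfb4 were moderately higher with vorinostat, and the vorinostat and DMSO arrays of Pfkfb3 overlapped. The genes were selected on these vorinostat and DMSO values among others, since the isoform contrast was known when they were chosen, so the values are a description, and which of them passed limma's threshold is given only as a count beside that of all genes and is not evidence for them.

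Of the 9 genes, each taken at its brightest probe set, 5 passed the threshold of limma's test across all probe sets as higher (an adjusted p under 0.05), where 20.9% of all genes did, and 1 passed as lower, where 18.9% did. Of the 19 probe sets, 8 passed as higher, against 16.5% of all probe sets, and 2 as lower, against 15.7%. Vorinostat values lay wholly above or wholly below DMSO values for 8 of the 9 genes, against 68.9% of all genes. The median change over the 9 genes was 0.32 on the log2 scale, against 0.03 over all genes, and the median size of change without regard to sign was 0.62, against 0.24. A change of at least 2-fold was seen for 3 of the 9 genes, all of them phosphofructokinase-1 subunits, against 11.9% of all genes. Nothing is read from these counts.

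**Figure D1:**
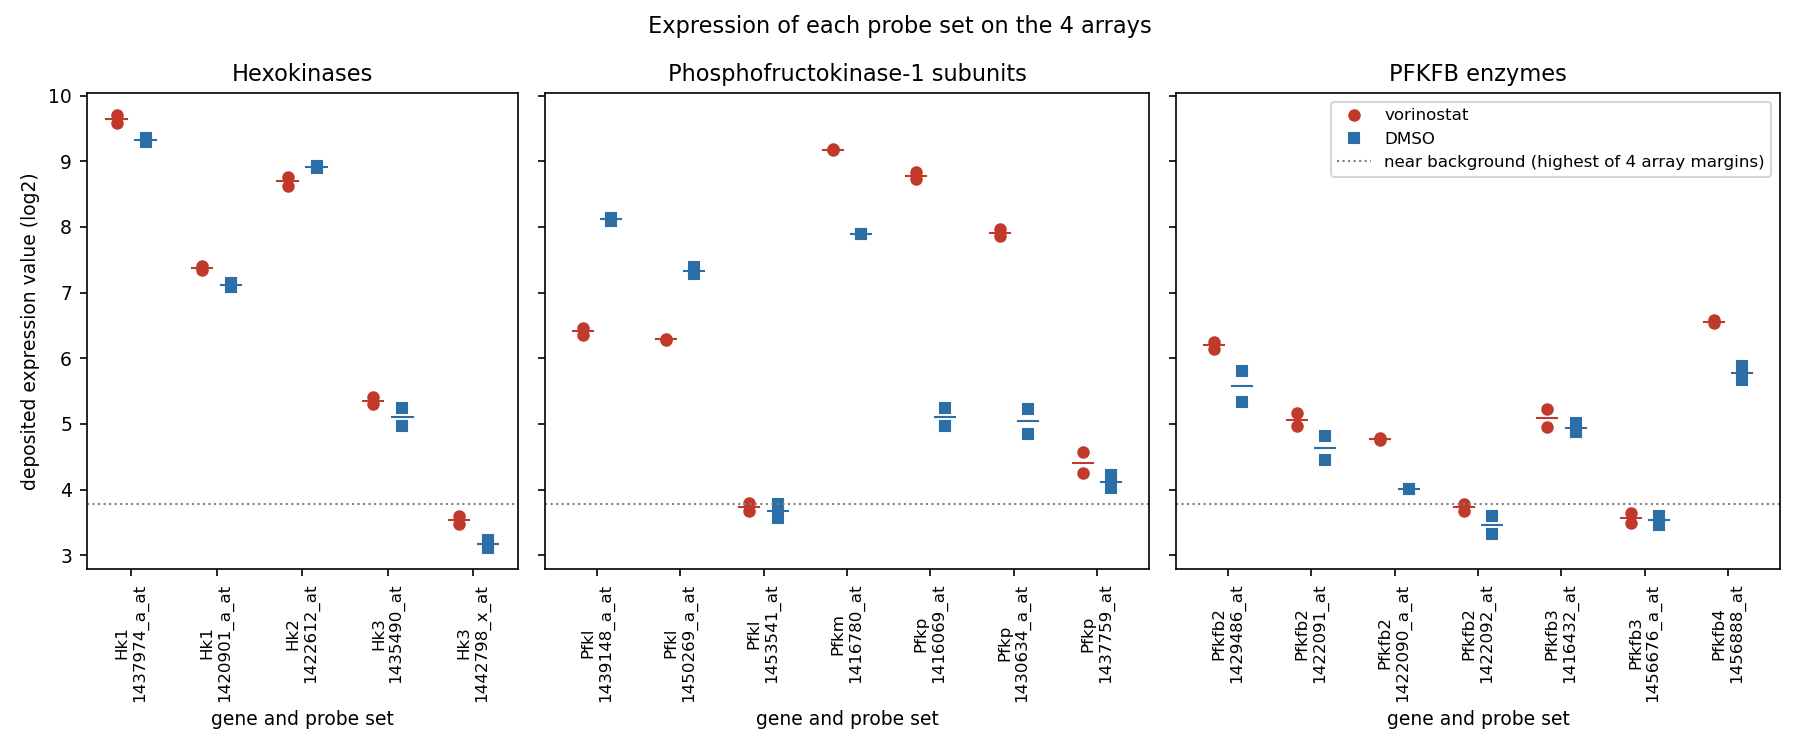
Deposited log2 expression (vertical axis) of each of the 19 probe sets on the 2 vorinostat arrays (red circles) and the 2 DMSO arrays (blue squares), with a bar at each mean and a dotted line at the highest of the background margins. The widest gaps are at 1416069_at and 1430634_a_at for Pfkp, where vorinostat is higher, and at 1439148_a_at for Pfkl, where vorinostat is lower.

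The epithelial markers Krt8, Krt18, Epcam and Cdh1 were above background on all arrays, as were all 8 of the epithelial list, of which 1 rose (Krt19) and 1 fell (Krt8). Krt5 (4.52 to 4.78) and Trp63 (4.10 to 4.64) were dim, close to the array medians. The prostate gene Hoxb13 was at 8.75 and 8.82 in vorinostat cells and at 8.24 and 8.24 in DMSO cells, whereas Pbsn, a secretory product of mouse prostate, lay near background in both groups. A group is called near background where each of its arrays is at most 1 log2 unit above the brightest Trpn control probe set, whose transcript was not added to the samples. Beside the marker counts given here, 20.9% of all genes rose and 18.9% fell past limma's threshold. Of 5 fibroblast markers 4 were above background and 2 rose, Pdgfra by 1.54 and Dcn by 1.26. Col1a1 (-0.31), Col1a2 (-0.21) and Thy1 (-0.07, near background in both groups) did not pass, and the median change of the 5 was -0.07. The summed log2 level of the 5 markers was 39.4 and 40.1 in vorinostat cells, against 37.3 and 37.7 in DMSO cells. Their part in the results was not tested. Array medians lay between 4.19 and 4.28, and the median gap between arrays of a group was 0.10 for vorinostat and 0.11 for DMSO over all probe sets, against 0.11 and 0.14 over the 19 probe sets described here. In such bulk RNA a lower share of cells with a transcript and less of it per cell cannot be told apart.

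Among the phosphofructokinase-1 genes, Pfkp encodes the platelet type subunit, which is also found in many tumour cells. At its brightest probe set, 1416069_at, Pfkp had log2 values of 8.84 and 8.72 on the vorinostat arrays, against 5.24 and 4.97 on the DMSO arrays. Both vorinostat arrays lay far above both DMSO arrays, and neither group was near background. The means were 8.78 ± 0.08 in vorinostat cells and 5.11 ± 0.19 in DMSO cells (SD, n = 2 each), a log2 change of 3.68 (SE 0.12), which ranked 28 from the top among 18193 genes. A separate probe set, 1430634_a_at, gave 7.86 and 7.97 on the vorinostat arrays and 4.85 and 5.23 on the DMSO arrays, a change of 2.88 (SE 0.14). These agree in direction and differ in size by less than 2-fold.

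The remaining Pfkp probe set, 1437759_at, did not show this difference. It was at 4.25 and 4.56 in vorinostat cells and at 4.22 and 4.03 in DMSO cells, a change of 0.28 (SE 0.14), and the lower vorinostat array lay just above the higher DMSO array. All its values were dim, close to the array medians. The changes of the Pfkp probe sets thus spanned 3.39 log2 units, a range met or exceeded by 9 of 9010 genes with several probe sets (Pfkp among them), where the median range was 0.31. Which transcripts each probe set matches was not tested. The mean over all 3 probe sets gave Pfkp a change of 2.28.

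Pfkm, the muscle type subunit, had a single probe set, 1416780_at. It was at 9.18 on both vorinostat arrays and at 7.89 on both DMSO arrays. The arrays of each group were nearly identical and the groups stood well apart. The log2 change was 1.29 (SE 0.08), with SDs of 0.0062 in vorinostat cells and 0.0021 in DMSO cells (n = 2 each). Of 4 skeletal muscle markers (Myod1, Myog, Des and Ckm), none passed limma's test, against 20.9% of all genes that rose and 18.9% that fell. The summed log2 level of the 4 markers was 17.3 and 17.9 in vorinostat cells and 16.9 and 17.7 in DMSO cells.

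Pfkl, the liver type subunit, was the phosphofructokinase-1 gene with lower values in vorinostat cells. Its brightest probe set, 1439148_a_at, gave 6.36 and 6.47 on the vorinostat arrays, against 8.09 and 8.14 on the DMSO arrays. The change was -1.70 (SE 0.08) on the log2 scale, which placed Pfkl at rank 321 from the largest fall among 18193 genes. The probe set 1450269_a_at gave 6.29 and 6.29 in vorinostat cells and 7.29 and 7.39 in DMSO cells, a change of -1.05 (SE 0.08). At both, each vorinostat array was below each DMSO array. The third Pfkl probe set, 1453541_at, was at 3.67 and 3.79 in vorinostat cells and at 3.57 and 3.77 in DMSO cells, where the groups overlapped and all arrays lay close to the background margins of 3.54 to 3.78. The mean over the 3 probe sets was -0.90.

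**Figure D2:**
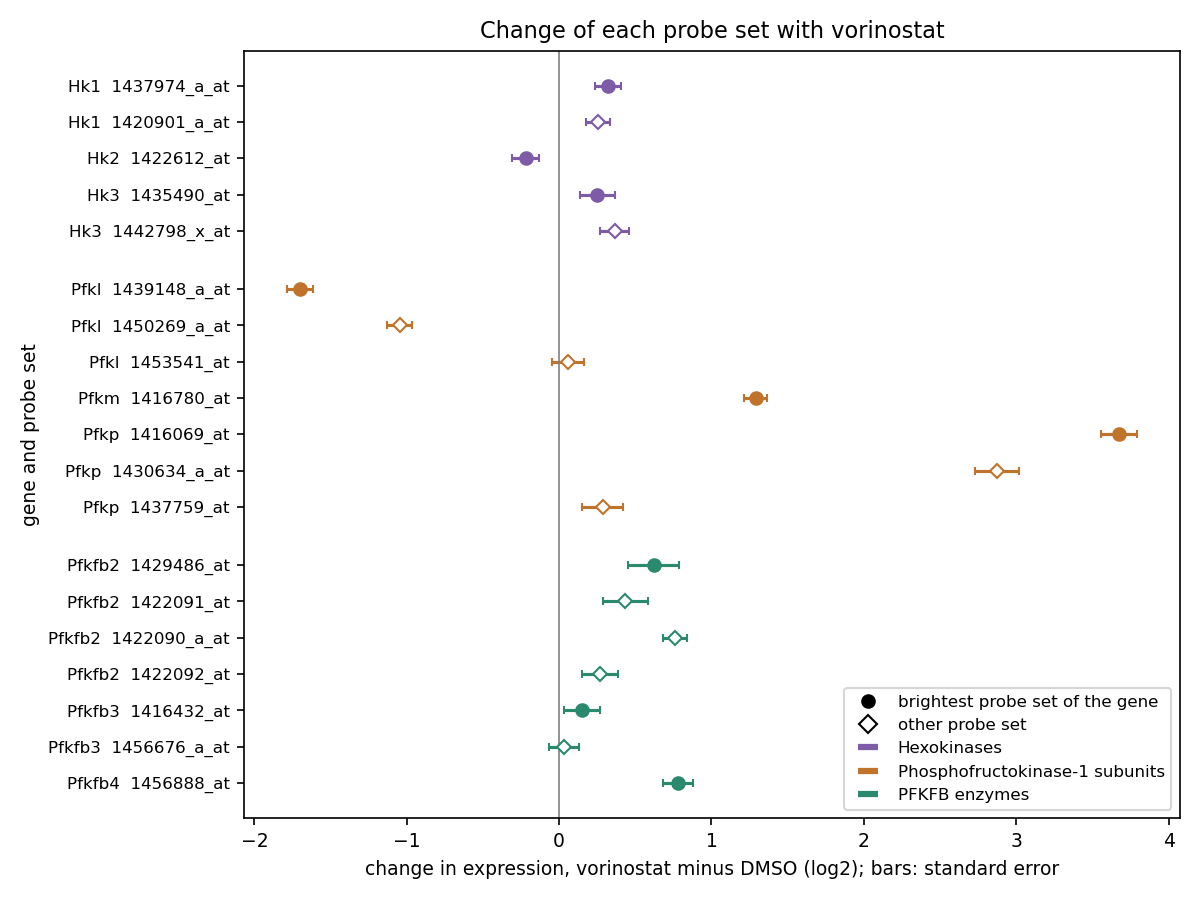
Change in log2 expression, vorinostat minus DMSO (horizontal axis), of each probe set, with its standard error as a bar. Filled circles are the brightest probe set of a gene and open diamonds the others, and colours give the enzyme class. Pfkp at 3.68 and 2.88, Pfkm at 1.29 and Pfkl at -1.70 and -1.05 stand apart from the other genes, while the dimmest probe sets of Pfkp and Pfkl lie at 0.28 and 0.06.

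Set against each other, the 3 subunits changed unequally. The change of Pfkp exceeded that of Pfkl by 5.38 log2 units (SE 0.19), so that the ratio of Pfkp to Pfkl signal was 41.6-fold higher in vorinostat cells than in DMSO cells. Pfkm exceeded Pfkl by 2.99 (SE 0.07) and Pfkp exceeded Pfkm by 2.39 (SE 0.14). Levels of different probe sets are not compared here, since probes differ in affinity, so the data do not give which subunit was the most abundant in either group. A shift of a whole array, as in scaling on reference genes, moves all its genes alike and leaves these differences unchanged. With a repeated quantile normalization they were 5.34, 2.99 and 2.35. With the mean of all probe sets per gene they were 3.18, 2.19 and 0.99.

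Of the hexokinases, Hk1 is found in most tissues and, like Hk2, binds the outer mitochondrial membrane. Its brightest probe set, 1437974_a_at, was at 9.58 and 9.70 in vorinostat cells, against 9.35 and 9.29 in DMSO cells. The groups did not overlap and the change was 0.32 (SE 0.09) on the log2 scale, or 1.25-fold. The second Hk1 probe set, 1420901_a_at, was at 7.41 and 7.34 on the vorinostat arrays, against 7.15 and 7.09 on the DMSO arrays, a change of 0.26 (SE 0.08). Both probe sets thus gave a small difference of like size. A further probe set lists Hk1 together with several Rpl17 genes and was left out.

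Hk2, the isoform of muscle, fat and many tumours, had the probe set 1422612_at. It was at 8.62 and 8.77 in vorinostat cells and at 8.93 and 8.89 in DMSO cells. The vorinostat arrays were lower, but the change of -0.22 (SE 0.09) was only somewhat larger than the gap of 0.15 between them. It was -0.14 without vorinostat replicate 1 and -0.29 without vorinostat replicate 2, and -0.20 and -0.24 without DMSO replicates 1 and 2. With a repeated quantile normalization it was -0.14, and with arrays scaled on 6 reference genes -0.17. It turned to 0.09 with arrays scaled on 8 reference genes.

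Hk3 is known mainly from myeloid blood cells. At 1435490_at it was at 5.41 and 5.30 in vorinostat cells, against 4.97 and 5.24 in DMSO cells. The lowest vorinostat array lay just above the highest DMSO array, and the change was 0.25 (SE 0.12), or 0.12 without DMSO replicate 1 and 0.38 without DMSO replicate 2. The probe set 1442798_x_at, of a type that can match other transcripts as well, lay near background in both groups, at 3.60 and 3.47 in vorinostat cells and at 3.12 and 3.24 in DMSO cells, so no fold is given. Of 5 immune markers, 3 (Ptprc, Itgam and Adgre1) were near background in both groups. Cd3e rose by 0.43, where 20.9% of all genes rose past limma's threshold. The summed log2 level of the 5 markers was 17.8 and 18.0 in vorinostat cells, against 17.2 and 17.6 in DMSO cells.

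Within the hexokinases, the change of Hk1 exceeded that of Hk2 by 0.54 (SE 0.02), a 1.45-fold higher ratio of Hk1 to Hk2 signal in vorinostat cells than in DMSO cells. The SE of a pair rests on its own differences within 4 arrays alone, so the value of 0.02 may be too small by chance. Hk3 exceeded Hk2 by 0.47 (SE 0.20). Hk1 and Hk3 differed from each other by 0.07 (SE 0.20), less than the standard error, and the sign of that difference turned without DMSO replicate 2 (-0.09) and without vorinostat replicate 2 (-0.05), against 0.23 without DMSO replicate 1 and 0.19 without vorinostat replicate 1. The brightest probe sets of the 3 hexokinases spanned 0.54 log2 units in all, against 5.38 for the phosphofructokinase-1 subunits and 0.63 for the PFKFB enzymes.

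The PFKFB enzymes set the level of the phosphofructokinase-1 activator. Pfkfb4, known from testis and as a hypoxia-inducible form, had the probe set 1456888_at, at 6.58 and 6.53 in vorinostat cells, against 5.67 and 5.87 in DMSO cells. All vorinostat values were above all DMSO values, and the change was 0.78 (SE 0.10), or 1.72-fold. It was the largest of its class in the deposited values at the brightest probe sets.

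Pfkfb2, the heart type enzyme, had 4 probe sets. The brightest, 1429486_at, was at 6.14 and 6.25 in vorinostat cells and at 5.81 and 5.34 in DMSO cells, a change of 0.62 (SE 0.17). Here the 2 DMSO arrays were 0.47 apart, the widest gap within a group among the 19 probe sets, and the change was 0.86 without DMSO replicate 1 and 0.39 without DMSO replicate 2. The probe set 1422090_a_at was more even, at 4.79 and 4.75 in vorinostat cells and at 4.01 and 4.01 in DMSO cells, with a change of 0.76 (SE 0.08). At 1422091_at the values were 4.96 and 5.17 in vorinostat cells and 4.46 and 4.81 in DMSO cells. The fourth, 1422092_at, was near background in DMSO cells (3.33 and 3.60) and just above the margin in vorinostat cells (3.78 and 3.67), so no fold is given. In all 4 probe sets of Pfkfb2 the vorinostat arrays were above the DMSO arrays.

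Pfkfb3, the inducible form whose kinase activity far exceeds its phosphatase activity, was at 5.22 and 4.96 in vorinostat cells and at 4.87 and 5.01 in DMSO cells at 1416432_at. The groups overlapped, and the change was 0.15 (SE 0.12), with values of 0.02 to 0.28 without single arrays, lowest without vorinostat replicate 1 and highest without vorinostat replicate 2, and 0.08 without DMSO replicate 1. Its other probe set, 1456676_a_at, was near background in both groups. The change of Pfkfb4 exceeded that of Pfkfb3 by 0.63 (SE 0.11), and that of Pfkfb2 exceeded Pfkfb3 by 0.47 (SE 0.36). This last difference was 0.78 without DMSO replicate 1, 0.17 without DMSO replicate 2 and 0.29 without vorinostat replicate 2. Pfkfb4 and Pfkfb2 differed by 0.16 (SE 0.35), and the sign turned without DMSO replicate 1 (-0.18), with 0.50 without DMSO replicate 2 and 0.08 without vorinostat replicate 1. In all, 9 isoform pairs were compared within the 3 classes.

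**Figure D3:**
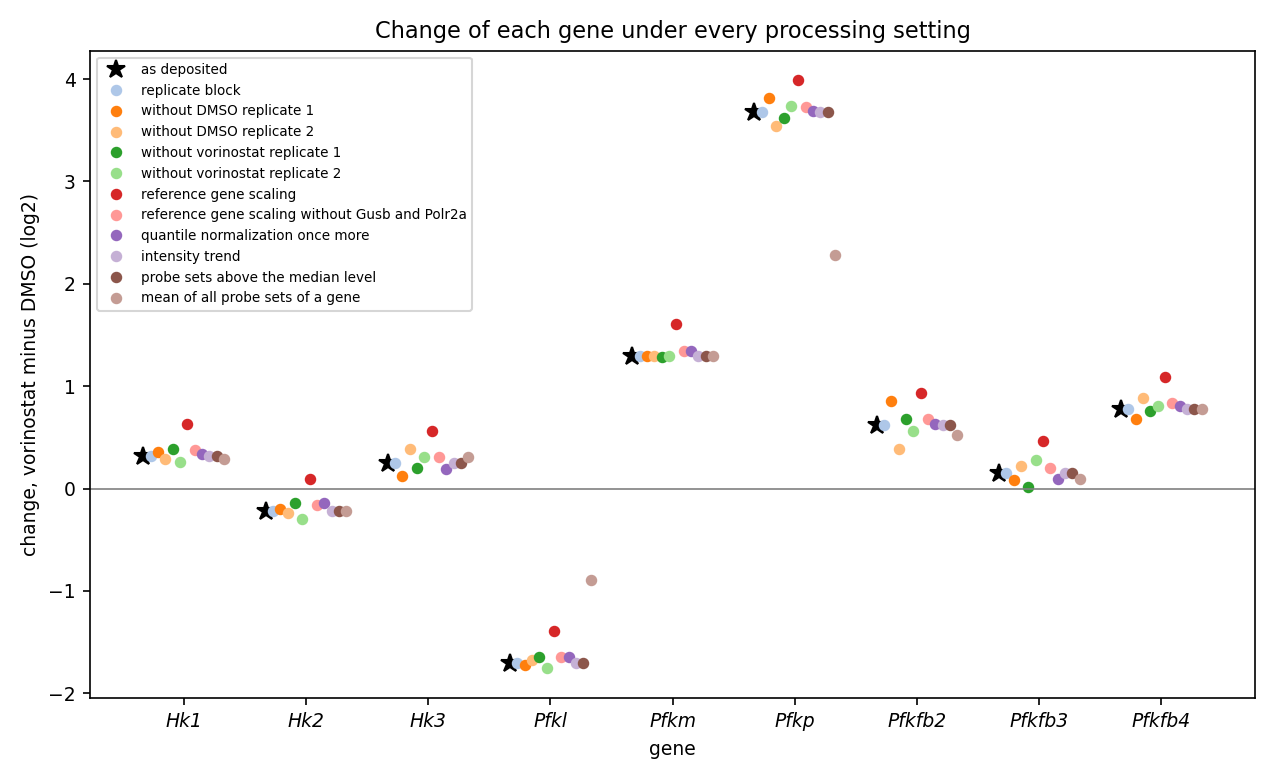
Log2 change, vorinostat minus DMSO (vertical axis), of each gene as deposited (star) and under 11 other processing settings (circles). Pfkp stays above 2 and Pfkm above 1 in each, Pfkl stays below 0, and Hk2 lies on either side of 0.

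How a gene is summarised and how arrays are scaled moved the values more than the omission of an array did for Pfkp and Pfkl. Over the 11 other settings Pfkp ranged between 2.28 and 3.99, Pfkm between 1.29 and 1.60, Pfkl between -1.76 and -0.90, and Pfkfb4 between 0.68 and 1.09. Without single arrays Pfkp ranged between 3.54 and 3.81 and Pfkl between -1.76 and -1.65. The reference genes had a mean change of -0.31, of which Gusb and Polr2a account for most, and scaling on them raises each change by 0.31 and the median gene to 0.34. Without Gusb and Polr2a the mean of the other 6 was -0.05. Hk1 ranged between 0.26 and 0.38 and Pfkfb2 between 0.39 and 0.86 with single arrays left out.

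The rest of the pathway was looked at through a list of 22 other glycolysis genes, of which 18 had a probe set with a single symbol. By limma's test, with Benjamini-Hochberg adjustment over 45037 probe sets, 6 rose, 3 fell and 9 did not pass, against 20.9% of all genes that rose and 18.9% that fell. The median change was 0.07, near the 0.03 of all genes. With arrays scaled on 8 reference genes 12 rose, and with replicate number as a block 4 did. Aldolase, the enzyme that follows phosphofructokinase-1, also has isoforms. The brain type Aldoc was at 8.08 and 7.86 in vorinostat cells, against 4.78 and 5.15 in DMSO cells, and rose by 3.0 (SE 0.15, adjusted p = 0.000267, limma). A second and much dimmer Aldoc probe set, near background in both groups, did not pass, and the mean of both was 1.71. Aldoa, the aldolase of muscle and most cells, changed by 0.26 (SE 0.08, adjusted p = 0.0586, limma).

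The neuronal enolase Eno2 was at 7.13 on both vorinostat arrays, against 5.64 and 5.26 on the DMSO arrays, and rose by 1.68 (SE 0.14, adjusted p = 0.000786, limma). The muscle enolase Eno3 was at 9.93 and 10.38 in vorinostat cells, against 11.36 and 11.30 in DMSO cells, and fell (-1.18, SE 0.16, adjusted p = 0.00373, limma). Eno3 no longer passed without DMSO replicate 1 (adjusted p = 0.0707) or without DMSO replicate 2 (adjusted p = 0.0626). The glucose transporter Slc2a3 was at 5.19 and 5.37 in vorinostat cells, against 7.25 and 7.18 in DMSO cells, and fell by 1.94 on the log2 scale (SE 0.10, adjusted p = 0.000261, limma), whereas Slc2a1 rose by 1.05. Its probe set 1437052_s_at may pick up related transcripts too, and of its further probe sets 1455898_x_at fell by 1.85, while 1421924_at (-0.34) and 1427770_a_at (-0.01) were near background in both groups. The mean over all Slc2a3 probe sets was -1.04. Fructose bisphosphatase genes, whose products reverse the phosphofructokinase step, were dim. Fbp1 lay near background in both groups, and Fbp2 was at 4.14 and 4.11 in vorinostat cells and 3.81 and 3.80 in DMSO cells.

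**Figure D4:**
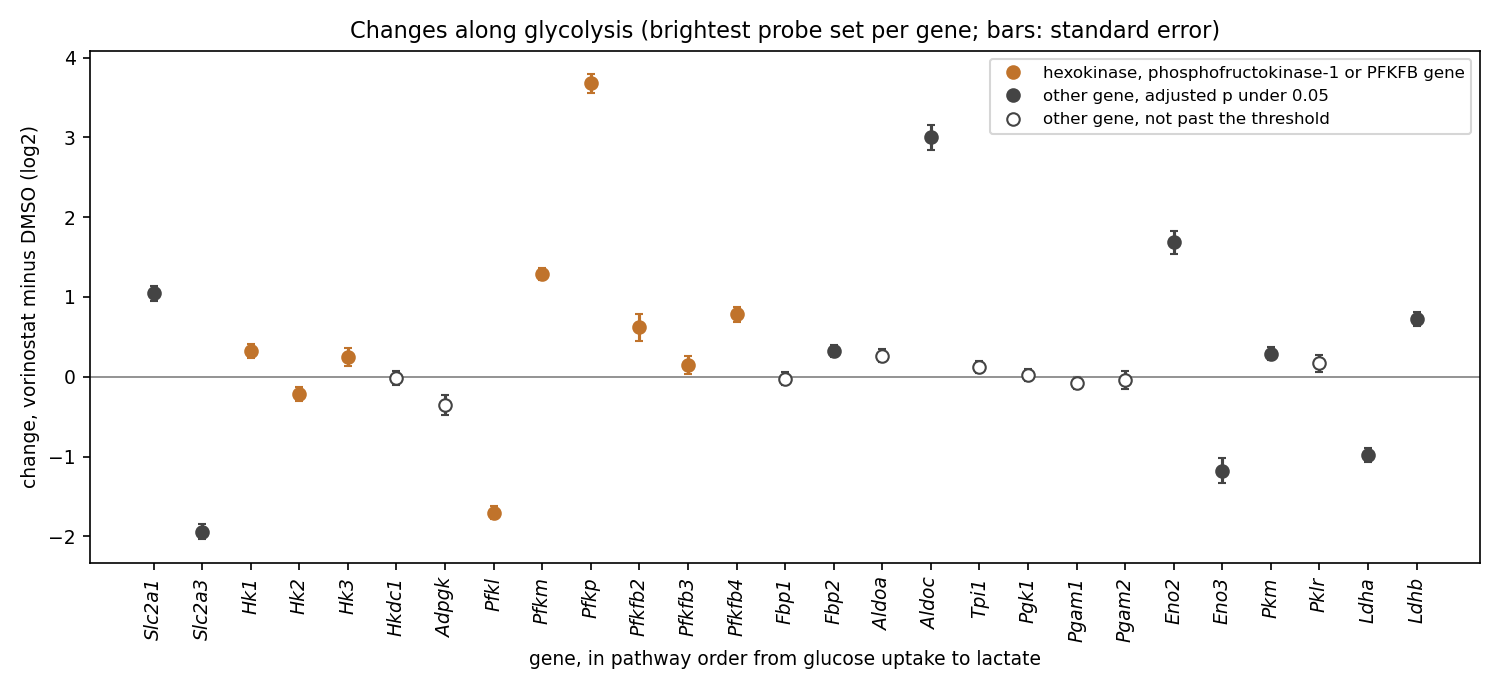
Log2 change, vorinostat minus DMSO (vertical axis), at the brightest probe set of each gene in the order of the pathway, with standard errors as bars. Orange points are the hexokinase, phosphofructokinase-1 and PFKFB genes, and black points are the other genes, filled where they passed limma's test. Pfkp and Aldoc are highest, Slc2a3 and Pfkl lowest, and Tpi1 and Pgk1 lie at 0.13 and 0.02.

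Among 16 regulators and partners of these enzymes, 5 rose, 1 fell and 10 did not pass limma's test, against 20.9% of all genes that rose and 18.9% that fell, with a median change of 0.08. Txnip, which restrains glucose uptake, was at 10.92 and 10.82 in vorinostat cells, against 6.52 and 6.29 in DMSO cells, and rose by 4.47 (SE 0.11, adjusted p = 0.00016, limma). Epas1, which encodes the hypoxia factor HIF-2α, rose by 1.18 (SE 0.10, adjusted p = 0.000768, limma), and a second probe set by 0.59. Akt1, a kinase that phosphorylates Pfkfb2 and promotes binding of hexokinase to mitochondria, fell by 0.86 on the log2 scale (SE 0.08, adjusted p = 0.00132, limma). Of its dimmer probe sets 1 fell by 1.04, and those at 0.15 and 0.14 did not pass, and the mean of all 4 was -0.40. Without DMSO replicate 1, DMSO replicate 2 or vorinostat replicate 1 only 3 of the 16 rose, and with arrays scaled on 8 reference genes 12 did.

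Some PFKFB and hexokinase genes are known targets of the hypoxia-inducible factors, so a list of 14 other hypoxia response genes was examined. Of these, 8 rose, 3 fell and 3 did not pass limma's test, against 20.9% of all genes that rose and 18.9% that fell, with a median change of 0.52, against 0.03 over all genes. Ndrg1, a stress-responsive growth regulator, rose by 2.30 (SE 0.08, adjusted p = 0.00016, limma), and its other 4 probe sets rose by 2.11 to 2.48. Ddit4, an inhibitor of the mTOR pathway, rose by 1.33 (SE 0.09, adjusted p = 0.000529, limma). The vasodilator peptide gene Adm fell by 1.06 (SE 0.11, adjusted p = 0.00169, limma) and the oxygen sensor Egln1 by 0.77 (SE 0.08, adjusted p = 0.00143, limma) on the log2 scale. A second probe set changed by -0.97 for Adm and by -1.40 for Egln1. The means over all probe sets were -1.01 for Adm and -1.08 for Egln1. Without DMSO replicate 1, 5 of the 14 rose.

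Genes beside those described here on their chromosomes were examined after the values were seen, with neighbours taken from the RefSeq table of assembly GRCm38.p6. Of 18 measured protein-coding neighbours of the 9 genes, 3 rose and 4 fell past limma's threshold, against 20.9% and 18.9% of all genes. Pitrm1, next to Pfkp, rose by 0.47 (SE 0.08, adjusted p = 0.00977, limma). Adarb2 on the other side was near background in vorinostat cells and dim in DMSO cells (3.67 and 3.16), with a change of -0.04. Neither neighbour of Pfkl passed, with Cfap410 at -0.09 and Aire at -0.04. Aire was dim, at 3.90 and 3.89 in vorinostat cells and at 3.93 and 3.94 in DMSO cells. Senp1, beside Pfkm, fell by 1.05 on the log2 scale (SE 0.08, adjusted p = 0.000622, limma), and Asb8 on its other side rose by 0.37 (SE 0.08, adjusted p = 0.0197, limma). Hkdc1, a hexokinase-like gene next to Hk1, had a change of -0.02.

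The genes whose profile over the 4 arrays, each centred on its own mean, lay closest to that of Pfkp by Euclidean distance were Mmp10, Cxcl2 and Col5a3, at distances of 0.11, 0.11 and 0.15 log2 units. Those closest to Pfkl were Ifi47, Dis3l and Bmp2, at 0.05 each. With 2 groups of 2 arrays this measure mostly picks genes with a change of the same size.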

How the data were processed

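The deposited table holds log2 expression values, 1 per probe set and array, for 4 arrays. Per the submitters' processing notes the authors used RMA and the Transcriptome Analysis Console, with versions and genome build not given in the sources used here. RMA equalises the arrays' distributions, so a shift common to all transcripts is not visible. Of 45101 probe sets, 64 controls were left out of the tests. Of the other 45037, the platform annotation gave 1 symbol to 34945, several to 932 and none here to 9160, and the identifiers of all 19 probe sets described matched RefSeq under the same symbol.

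The groups were compared with limma 3.58.1, run in R 4.3.3 (lmFit and eBayes, two-sided, Benjamini-Hochberg over 45037 probe sets, threshold 0.05), tested on simulated data. No filter or further normalization was applied. A gene is its brightest probe set by the mean over the 4 arrays. Changes are given as the vorinostat mean minus the DMSO mean in log2 units, with the SE of the fit. The SE of an isoform pair comes only from the within-array differences of the pair. Unlike the SE of the fit it borrows nothing from other probe sets, so it is less certain and the kinds of SE are not comparable. In lists, the 2 largest rises and the 2 largest falls past the threshold were named. Neighbouring genes, Slc2a1, Aldoa, Fbp1, Fbp2, Tpi1, Pgk1 and the markers named were chosen outside this rule, after values were seen. The members and lists were chosen with earlier results of these data known. The number of arrays limits the precision. Alternatives were a replicate block, leaving out each array, scaling on reference genes (8 of 9 listed had a probe set), a repeated quantile normalization, an intensity trend, a filter at the median level, the mean of all probe sets of a gene, and a background margin of 0.5. Scaling without Gusb and Polr2a was added after the data were seen.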

Additional observations from a re-analysis of the deposited data

How the results depend on the processing

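The changes of the 9 genes took 99 values under the alternatives, of which 30 equal the deposited difference, since a replicate block, an intensity trend and the filter at the median level cannot move a difference of means and 3 genes have 1 probe set. Of the other 69, 68 kept the sign. The exception was Hk2 under scaling on 8 reference genes (0.093), which adds the same amount to every gene. That scaling also gave 23428 probe sets higher and 4269 lower, against 7440 and 7051, so that 84.6% of called probe sets were higher, against 51.3% as deposited and 58.0% when scaled without Gusb and Polr2a, and it gave 12 other glycolysis genes and 12 regulators and partners higher. With the mean of all probe sets of a gene, the differences of Pfkp to Pfkl, Pfkm to Pfkl and Pfkp to Pfkm were 3.18, 2.19 and 0.99, that of Hk1 to Hk2 was 0.51 and that of Hk1 to Hk3 was -0.019. This setting includes the dim probe sets. A repeated quantile normalization gave 0.48 for Hk1 to Hk2. It also left 2 regulators and partners lower, as did the filter at the median level and the mean of all probe sets, against 1. An intensity trend left 2 of the 9 genes lower.

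Leaving out single arrays, 3778 to 4284 probe sets were higher and 3900 to 4575 lower, with fewer arrays in each fit. Among the 9 genes 3 to 4 were higher, among the regulators and partners 3 to 4, and among the hypoxia response genes 5 to 7. Hk1 to Hk3 ranged from -0.095 to 0.23, with -0.047 without vorinostat replicate 2, and Pfkfb4 to Pfkfb2 from -0.18 to 0.50. The cause of these turns was not tested.

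The groups share replicate numbers, but the deviations of same-numbered arrays had a correlation of -0.06, so the numbers were not taken to pair the arrays. With the replicate block, 3 of the 9 genes passed as higher and 1 as lower, and 5856 probe sets were higher and 5704 lower. With a background margin of 0.5, 0 of the 19 probe sets were near background in either group, against 2 in vorinostat cells and 3 in DMSO cells.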
